A study of Mus musculus with 6 samples.

Results

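The cell cycle genes described here are 42 genes chosen by symbol: 8 cyclins, 4 cyclin-dependent kinases (CDKs), 4 CDK inhibitors, 8 genes of the E2F transcription factors and the Rb family of pocket proteins, 9 genes of DNA replication and 9 genes of mitosis. A peak was assigned to a gene where the deposited annotation gave that symbol. Of the 42 genes, 40 had at least 1 peak in the common peak list, out of 19109 genes named there, and 39 had a peak at a transcription start site, out of 13799. No peak carried the symbol Cdkn2d or Mcm7, and Ccnd1 had peaks only away from its start site. The 40 genes held 329 of the 148063 peaks with a symbol, and 70 of the 20036 start-site peaks.

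Accessible chromatin was measured by ATAC-seq, which reads out where a transposase can cut DNA, in sorted, untreated T follicular helper (Tfh) cells of C57BL/6 mice. The populations are labelled Tfh21, Tfh214 and Tfh4. Each came from mice wild-type (WT) for Stat6 and from Stat6 knockouts (KO), 10 mice per genotype, with 50000 cells per library and 1 library for each of the 6 groups. No other allele or agent was named. The sources used here give neither the age of the mice and the tissue nor the part of Stat6 that the knockout lacks, nor the markers of the sort.

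The cell cycle is driven by CDKs that are active only when bound to a cyclin. D-type cyclins with Cdk4 or Cdk6 inactivate the Rb family, which frees E2F factors to switch on the genes of DNA replication, while CDK inhibitors hold the kinases back and B-type cyclins with Cdk1 bring the cell into mitosis. Tfh cells, which help B cells in germinal centres, can divide repeatedly after activation, and Stat6 is the transcription factor activated by IL-4.

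Libraries held between 798555 and 1373218 reads in peaks. Values are CPM, a gene's reads scaled to a fixed total of reads in peaks per library. The share of a library's reads that lay at start sites of all genes ran from 27.6% to 36.4%, was higher in KO than in WT in each population, and was lowest in the Tfh4 library of each genotype. A start site can thus gain or lose CPM with this share, so the median over all tested genes stands beside the members' medians, and values after median-of-ratios scaling, which sets the all-gene median near 0, are given with the main results. For ratios, pairs and counts of libraries, the factors of the median-of-ratios scaling came from start-site sums. Outside start sites they do not set the all-gene median near 0. The 8 T cell and 9 Tfh marker genes, summed over their peaks, stood at 342 to 471 and 460 to 659 CPM. The B cell list, of which 6 of 8 genes had listed peaks and none of those was at 0 (Cd79a and Ms4a1 were not listed), stood at 126 to 164 CPM in WT and 109 to 133 CPM in KO. Myeloid genes stood at 95.4 to 119 CPM and the cytotoxic list at 7.61 to 18.9 CPM, with Gzmb and Prf1 at 0 in at least 1 library. In such bulk libraries, fewer cells with an open site and less accessibility per cell cannot be told apart.

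The promoters of the members carry short sequence elements known to link them to phases of the cycle, and 8 upstream stretches are printed to show these and the 3 genes on which the comparisons below turn. Each run is the 180 bases before the RefSeq start site on the gene's own strand, 5′ to 3′, in build GRCm38.p6. Capitals mark matches, on either strand, to an E2F element (TTTCCCGC, TTTCGCGC, TTTGCCGC or TTTGGCGC), the CCAAT box (CCAAT), the cell cycle homology region, CHR (TTTGAA or TTCGAA), or the E-box CACGTG. Where matches overlap, as for the E2F element read on both strands, they form 1 run of capitals. Mcm5 (chr8:75109329-75109508, plus strand) and Mcm6 (chr1:128359706-128359885, minus strand), subunits of the replicative helicase, show the E2F element. Cdk1 (chr10:69352913-69353092, minus strand), the mitotic kinase, shows all of E2F, CCAAT and CHR. Top2a (chr11:99024190-99024369, minus strand), the topoisomerase that untangles chromosomes, and Ccnb1 (chr13:100786487-100786666, minus strand), cyclin B1, show repeated CCAAT boxes. Cdk4 (chr10:127063355-127063534, plus strand) shows 4 E-boxes. Hjurp (chr1:88277580-88277759, minus strand) and the first of 2 listed Cdkn2c starts (chr4:109666757-109666936, minus strand) hold no match in this stretch and so no capitals.
Mcm5: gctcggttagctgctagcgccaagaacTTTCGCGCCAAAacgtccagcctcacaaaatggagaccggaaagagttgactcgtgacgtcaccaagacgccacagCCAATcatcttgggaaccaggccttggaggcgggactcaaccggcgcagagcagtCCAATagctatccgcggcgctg
Mcm6: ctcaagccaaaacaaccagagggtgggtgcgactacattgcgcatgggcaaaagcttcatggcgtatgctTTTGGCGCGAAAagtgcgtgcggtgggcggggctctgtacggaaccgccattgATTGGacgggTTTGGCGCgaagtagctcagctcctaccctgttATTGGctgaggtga
Cdk1: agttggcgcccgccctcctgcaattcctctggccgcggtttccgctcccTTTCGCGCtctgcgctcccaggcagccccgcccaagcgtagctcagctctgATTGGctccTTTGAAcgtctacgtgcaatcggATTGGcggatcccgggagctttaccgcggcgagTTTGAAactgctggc
Top2a: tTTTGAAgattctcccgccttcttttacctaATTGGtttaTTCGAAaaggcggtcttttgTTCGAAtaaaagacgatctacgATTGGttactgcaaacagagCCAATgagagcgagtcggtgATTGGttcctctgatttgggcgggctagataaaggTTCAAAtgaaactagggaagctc
Ccnb1: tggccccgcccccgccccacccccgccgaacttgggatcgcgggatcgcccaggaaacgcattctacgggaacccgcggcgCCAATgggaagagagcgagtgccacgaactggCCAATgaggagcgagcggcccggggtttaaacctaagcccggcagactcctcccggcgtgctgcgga
Cdk4: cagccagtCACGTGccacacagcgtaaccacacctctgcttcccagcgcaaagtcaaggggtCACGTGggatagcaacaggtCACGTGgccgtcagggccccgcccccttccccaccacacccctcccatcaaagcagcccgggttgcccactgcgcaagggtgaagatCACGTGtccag
Hjurp: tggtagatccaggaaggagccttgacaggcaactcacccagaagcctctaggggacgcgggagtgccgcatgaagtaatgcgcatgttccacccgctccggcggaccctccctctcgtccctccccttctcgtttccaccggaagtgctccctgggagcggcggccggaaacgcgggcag
Cdkn2c: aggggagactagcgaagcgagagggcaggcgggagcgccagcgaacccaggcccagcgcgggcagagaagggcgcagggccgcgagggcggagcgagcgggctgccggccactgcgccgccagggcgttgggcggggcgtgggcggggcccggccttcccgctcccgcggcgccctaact

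Over the full 300-base window, from 250 bases before to 50 after the start, a RefSeq promoter was available for 35 of the 42 genes. An E2F element was found in 12 of these, or 34.3%, against 2.605% of 27025 genes with a promoter. The CCAAT box was found in 26, or 74.3%, against 41.1%, and the CHR in 16, or 45.7%, against 21.7%. The E-box was found in 4 (Cdk4, Cdk6, Cdkn2c and E2f3), or 11.4%, against 8.09%, and Cdk4 held 4 of them. Among the 5588 genes with both a promoter and a tested start site, the shares were 5.39% for E2F, 45.8% for CCAAT, 15.4% for CHR and 12.6% for the E-box. The elements split by role. Of 8 replication genes, 6 held the E2F element (Mcm3, Mcm5, Mcm6, Mcm7, Cdc6 and Cdt1), while none of 8 mitosis genes did. All 8 mitosis genes held both CCAAT and CHR, which for Hjurp lay outside the printed stretch. No E2F element was found for the 4 cyclins or the 4 inhibitors with a promoter. A match describes the letters only and was not tested for binding.

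Member accessibility lay mostly at start sites. Start-site peaks were 21.3% of the members' peaks and held 64.5% of their reads, against 13.5% and 48.0% for the peaks of all genes. Introns held 46.2% of the members' peaks and 19.6% of their reads, against 53.9% and 31.2%. With a minimum mean of 20 reads per library, 34 members entered the tests at start sites among 7087 genes. Ccnb2, Cdk2, Cdkn1a, Cdc6 and Aurkb had start-site peaks under that minimum. The median tested member had 40.4 CPM at its start site, against 35.5 CPM over all tested genes, and 41.3 against 39.5 CPM per kb of peak. All 39 start sites together took 0.477% of start-site reads in WT Tfh21 (95% Wilson interval 0.454 to 0.4999), 0.492% in WT Tfh214 (0.471 to 0.515) and 0.475% in WT Tfh4 (0.454 to 0.497). The KO libraries gave 0.470% in Tfh21 (0.448 to 0.492), 0.470% in Tfh214 (0.445 to 0.496) and 0.494% in Tfh4 (0.472 to 0.517). These intervals all overlap. Like every interval given here, they reflect counting error alone, as reads can be PCR copies of 1 molecule.

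**Figure D1:**
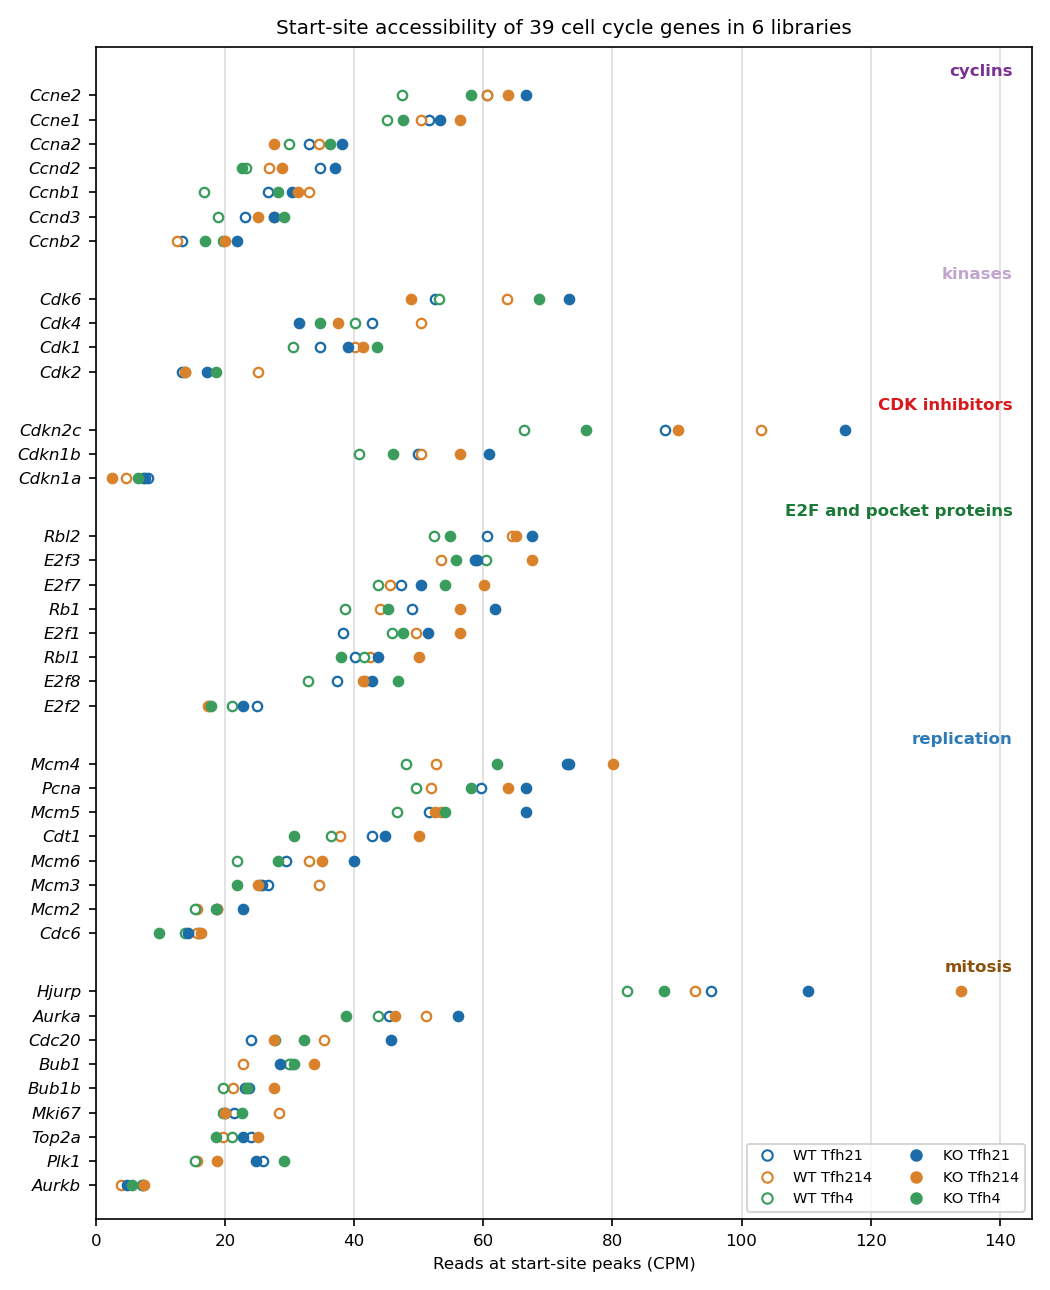
Start-site reads of the 39 genes with a start-site peak, in CPM (x axis), by role, with 1 point per library. Open points are WT and filled points KO; Hjurp reaches 134 CPM in KO Tfh214, while Aurkb stays below 10 CPM in all 6 libraries.

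Among the cyclins, the 2 E-type cyclins, which with Cdk2 start DNA replication, had the most accessible start sites. Values are given in the order Tfh21, Tfh214, Tfh4. For Ccne2 the WT libraries had 60.6, 60.5 and 47.3 CPM and the KO libraries 66.6, 63.9 and 58.1 CPM. Ccne1 stood at 51.7, 50.3 and 45.1 CPM in WT and 53.3, 56.4 and 47.6 CPM in KO. For both genes the Tfh4 library was the lowest of its genotype, and WT and KO overlapped. Ccnd2, a D-type cyclin that partners Cdk4 and Cdk6, stood at 34.7, 26.7 and 23.3 CPM in WT and 37.1, 28.8 and 22.6 CPM in KO. It was highest in Tfh21 and lowest in Tfh4 in both genotypes. Ccnd3, the other D-type cyclin with a start-site peak, stood at 23.2, 27.5 and 18.9 CPM in WT and 27.6, 25.05 and 29.1 CPM in KO, with no common order of the populations. Ccnb1, which with Cdk1 drives entry into mitosis, stood at 26.7, 33.0 and 16.7 CPM in WT and 30.4, 31.3 and 28.3 CPM in KO, so that its lowest library was WT Tfh4. Ccnb2, the second B-type cyclin, ran from 12.6 to 21.9 CPM and Ccna2, active in S phase and after, from 27.5 to 38.1 CPM, both with overlapping genotypes.

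Of the kinases, Cdk6 and Cdk4, which phosphorylate Rb, had the highest means. Cdk6 stood at 52.6, 63.7 and 53.2 CPM in WT and 73.3, 48.8 and 68.6 CPM in KO. KO was above WT in Tfh21 and Tfh4 and below it in Tfh214. A start of Gm36470 lies within 1000 bases of that of Cdk6 on the other strand, with no start-site peak of its own. Reads listed for Cdk6 there cannot be divided between the genes. Cdk4 stood at 42.8, 50.3 and 40.1 CPM in WT and 31.4, 37.6 and 34.7 CPM in KO, and here every KO library lay below every WT library. Cdk1 ran from 30.6 to 43.6 CPM, and Cdk2, the partner of the E-type cyclins, from 13.4 to 25.2 CPM.

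Cdkn2c, an INK4 inhibitor that binds Cdk4 and Cdk6, had the highest level of all members but Hjurp. It stood at 88.2, 103 and 66.3 CPM in WT and 116, 90.2 and 75.9 CPM in KO, and the Tfh4 library was the lowest of each genotype. Cdkn1b, which encodes the inhibitor p27, stood at 49.9, 50.3 and 40.8 CPM in WT and 60.9, 56.4 and 46.0 CPM in KO, again lowest in Tfh4 in each genotype. KO was higher than WT within each population, which no longer held with scaling. Cdkn1a, the inhibitor induced by p53, had at most 8.02 CPM at its start site.

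The pocket protein gene Rbl2 stood at 60.6, 64.5 and 52.4 CPM in WT and 67.5, 65.1 and 54.9 CPM in KO. E2f3, an activating E2F, stood at 58.8, 53.5 and 60.4 CPM in WT and 59.0, 67.6 and 55.7 CPM in KO. The genotypes overlapped for both genes, and WT Tfh4 was the lowest of the 6 libraries for Rbl2 but the second highest for E2f3. E2f1, also an activator, stood at 38.3, 49.5 and 45.9 CPM in WT and 51.4, 56.4 and 47.6 CPM in KO, with WT Tfh21 the lowest. E2f2, the third activator, was far less accessible, at 24.9, 17.3 and 21.1 CPM in WT and 22.8, 17.5 and 17.8 CPM in KO. Rb1 stood at 49.0, 44.0 and 38.6 CPM in WT and 61.8, 56.4 and 45.2 CPM in KO. E2f7, an E2F that represses, stood at 47.2, 45.6 and 43.7 CPM in WT and 50.4, 60.1 and 54.1 CPM in KO, with all KO libraries above all WT libraries.

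In the replication group, Mcm4, a helicase subunit, stood at 73.0, 52.7 and 48.1 CPM in WT and 73.3, 80.1 and 62.2 CPM in KO. Pcna, the sliding clamp of the polymerases, stood at 59.7, 51.9 and 49.5 CPM in WT and 66.6, 63.9 and 58.1 CPM in KO. KO was above WT within each population for both genes, but with median-of-ratios scaling this held for neither. Mcm3, another helicase subunit, went the other way, at 26.7, 34.6 and 25.5 CPM in WT and 25.7, 25.05 and 21.8 CPM in KO. The start site that Mcm7 shares with Ap4m1 on the other strand was listed under Ap4m1 (chr5:138612210-138613648 in mm9) and stood at 50.2 to 58.8 CPM in WT and 50.9 to 66.4 CPM in KO; its reads cannot be divided between the genes and were not counted for Mcm7.

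Hjurp, the chaperone that deposits the centromeric histone Cenpa, had the highest start-site level of all members. It stood at 95.3, 92.8 and 82.3 CPM in WT and 110, 134 and 88.0 CPM in KO, with the Tfh4 library lowest in each genotype and the KO library higher in each population, with scaling in Tfh214 only. Aurka, a kinase of the mitotic spindle, stood at 45.4, 51.1 and 43.7 CPM in WT and 56.1, 46.3 and 38.8 CPM in KO. A start of Cstf1 lies within 1000 bases of that of Aurka on the other strand and had no start-site peak of its own. Reads listed for Aurka there cannot be divided between the genes. Plk1, a kinase of mitotic entry, stood at 25.8, 15.7 and 15.3 CPM in WT and 24.7, 18.8 and 29.1 CPM in KO, with KO Tfh4 the highest. Top2a, at 24.0, 19.7 and 21.1 CPM in WT and 22.8, 25.05 and 18.6 CPM in KO, showed overlapping genotypes. The same held for Mki67, which encodes the proliferation marker Ki-67, at 21.4, 28.3 and 19.7 CPM in WT and 19.98, 20.04 and 22.6 CPM in KO.

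The comparison of KO with WT asked whether accessibility of these genes differed when Stat6 was lacking. No member was called at its start site. The fit was limma on log2(CPM + 1) with genotype and population as additive terms, 2 residual degrees of freedom and Benjamini-Hochberg adjustment over all 7087 genes at 0.05. It called 72 genes higher in KO, or 1.02%, and none lower. The unadjusted p was below 0.05 for 4 members, or 11.8%, against 19.5% of all tested genes, and no member was called by edgeR or DESeq2 on recovered reads. The members' median log2 difference was 0.18, against 0.17 over all tested genes, with 29 of 34 members above 0, beside 84.2% of all tested genes. After median-of-ratios scaling the members' median was 0.01, with 18 of 34 above 0. The largest difference was that of Plk1, 0.36 ± 0.22 (SE), with an adjusted p of 0.346, and the lowest that of Cdk4. The p-values set a difference against the spread over populations, not over animals, and an effect of genotype cannot be told apart from one of the animals used or of the library. As counts of libraries, KO was above WT in all 3 populations for 14 of 34 members (39.8% of all tested genes) and below it in all 3 for Cdk4 and Mcm3 (2.14% of all). With scaling, KO was above WT in all 3 for Mcm2 and Rb1 (12.9% of all) and below it for Ccnd2, Ccne1, Cdk4, E2f2, Mcm3 and Rbl2 (12% of all). All KO libraries lay above all WT libraries for Bub1b, a spindle checkpoint kinase, and E2f7 (12.3% of all), and after scaling for none (5.43%).

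**Figure D2:**
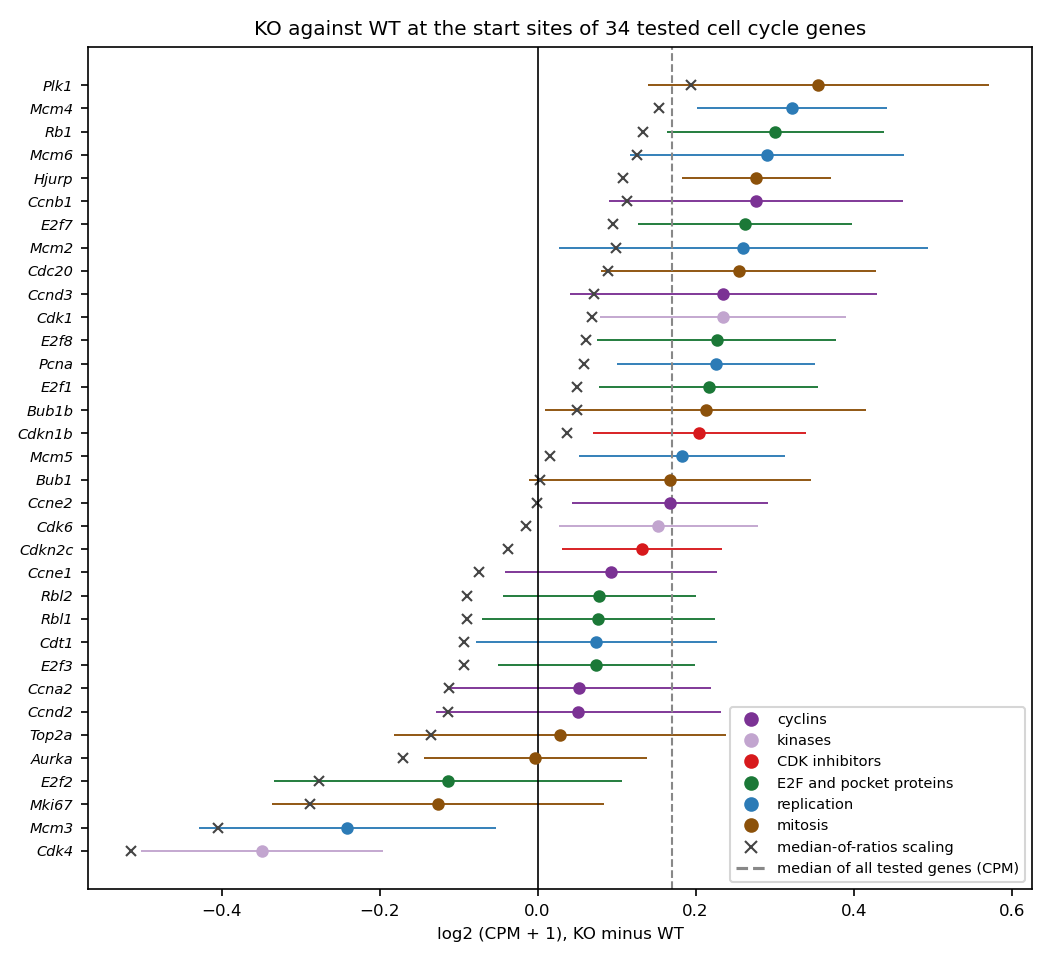
Difference between KO and WT in log2(CPM + 1) at the start sites of the 34 tested members, as the limma estimate with its SE (coloured points and bars) and after median-of-ratios scaling (crosses). The dashed line is the median of all tested genes, 0.17; Cdk4 lies at -0.35 and moves to -0.51 with scaling.

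By role, the median difference between KO and WT was 0.13 for 6 tested cyclins, 0.15 for 3 kinases, 0.17 for 2 inhibitors, 0.15 for 8 E2F and pocket protein genes, 0.23 for 7 replication genes and 0.19 for 8 mitosis genes. These medians lay between 0.13 and 0.23, around the 0.17 of all tested genes. Mcm4 had a log2 difference of 0.32 ± 0.12 with an adjusted p of 0.123, and 0.15 after scaling. Leaving out a Tfh214 library brought Mcm4 to 0.18 and leaving out a Tfh21 library to 0.48. Rb1 had 0.30 ± 0.14 with an adjusted p of 0.203, and 0.13 after scaling. Hjurp had 0.28 ± 0.09 with an adjusted p of 0.0953. It was called at 0.37, with an adjusted p of 0.0424, when both Tfh4 libraries were left out, and likewise without WT Tfh4 alone (adjusted p 0.045) or KO Tfh4 alone (0.0439). Without a Tfh214 library the difference of Hjurp was 0.15. Over all alternatives its adjusted p by limma, edgeR or DESeq2 ran up to 1, and its log2 difference was 0.11 with median-of-ratios scaling and lowest, at 0.06, with loess.

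Cdk4 went against the shift of the other start sites. Its start site was covered by a peak of 260 reads (chr10:126500266-126501009 in mm9) and a small one of 13 reads just upstream. Pooled over populations, KO had 0.774 of the WT CPM (exact binomial 95% interval 0.601 to 0.994), and 0.691 with scaling (0.536 to 0.887). The ratio was 0.734 in Tfh21 (0.457 to 1.17), 0.747 in Tfh214 (0.467 to 1.17) and 0.867 in Tfh4 (0.568 to 1.32), so each interval within a population included 1. The log2 difference of Cdk4 was -0.35 ± 0.15 with an unadjusted limma p of 0.0237 and an adjusted p of 0.189, which did not pass. Over the alternatives its adjusted p ran from 0.157 to 1 and the log2 difference from -0.52 to -0.31. All 3 KO libraries were below all 3 WT libraries, as for 0.381% of all tested genes. After scaling this held for 4 members, Ccne1, Cdk4, Mcm3 and Rbl2, and for 4.78% of all. Among the 4.25% of tested genes nearest to it in level, Cdk4 had the lowest difference. Cdk4 was taken up as the lowest of the 34 tested members. Its rank, the counts of libraries and the neighbours described below reuse that value and are no test of it. The pooled interval of Cdk4 was 1 of 39 looked at, with no adjustment for that number.

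No tested neighbour had a value as low as that of Cdk4. The remaining peak of the gene, in its second coding exon, had a KO to WT ratio of 1.02 (0.533 to 1.92). Cdk4 lies on chromosome 10, as Stat6 does, with its start site 0.579 Mb away. Of 14 other tested genes within 1 Mb of Cdk4, 2 had a difference below 0, the lowest being -0.05 for Atp23, and their median was 0.19. Stat6 itself, one of these, had 0.39 ± 0.15, and this checks no genotype label, since the lacking part of the gene was not given. Cdk2, also on this chromosome and 1.06 Mb from Stat6, had 13.4, 25.2 and 13.8 CPM in WT and 17.1, 13.8 and 18.6 CPM in KO. The part of the Stat6 locus in the Cdk4 value was not tested.

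**Figure D3:**
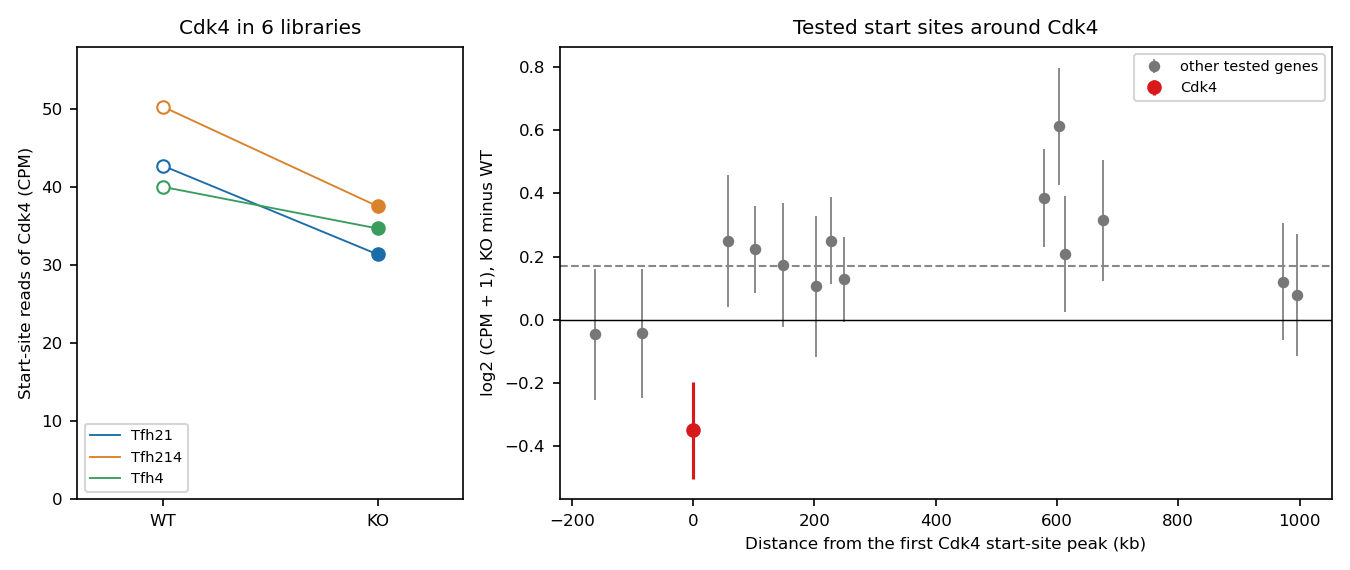
Left, start-site reads of Cdk4 in CPM in the 6 libraries, with lines joining WT and KO of a population. Right, difference between KO and WT in log2(CPM + 1), with its SE, for the tested start sites within 1 Mb of Cdk4 by distance in kb; Cdk4 lies at -0.35 and the next lowest gene at -0.05, and the dashed line is the median of all tested genes.

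The comparison of the 3 populations asked whether these genes differed between the sorted Tfh cells. Between Tfh214 and Tfh21 no gene of 7087 was called by limma (0% in either direction). Of the members, 1 had an unadjusted p under 0.05, Plk1 at -0.53 ± 0.26, and edgeR and DESeq2 called none. The highest member was E2f1 at 0.25 ± 0.17, and the members' median was -0.02, against -0.04 over all genes. With median-of-ratios scaling the members' median was 0.02 and the sign thus changed.

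Cdkn2c was the only member called lower in Tfh4 than in Tfh21. Its log2 difference was -0.51 ± 0.12 with an adjusted p of 0.0242 (limma), in a comparison that called 3.13% of all tested genes lower and none higher. Pooled over genotypes, Tfh4 had 0.697 of the Tfh21 CPM (0.570 to 0.851), with 0.752 in WT (0.559 to 1.01) and 0.654 in KO (0.494 to 0.863). Its main peak lies at chr4:109337898-109339783 in mm9. With median-of-ratios scaling the difference of Cdkn2c was -0.24 and the pooled ratio 0.839 (0.686 to 1.02), and the call was lost there, with loess scaling, with edgeR and DESeq2, and without the variance trend. It was also lost without WT Tfh21 (-0.70, adjusted p 0.444) and without KO Tfh21 (-0.31, adjusted p 0.604), and over all alternatives the adjusted p ran from 0.0134 to 1. The start-site share of reads was lower in Tfh4 than in Tfh21 (27.6% against 31.5% in WT, 29.7% against 36.4% in KO), and B cell marker reads were higher (162 against 126 CPM in WT, 133 against 109 CPM in KO). So were those of the cytotoxic list (18.2 against 8.91 CPM in WT, 17.0 against 7.61 CPM in KO), while those of the Tfh list were lower (460 against 546 CPM in WT, 484 against 659 CPM in KO). The T cell list was higher in Tfh4 in WT (371 against 361 CPM) and lower in KO (342 against 471 CPM). Myeloid reads were lower in both (95.4 against 105 CPM in WT, 97.7 against 105 CPM in KO). Within the B cell list, Pax5 was higher in Tfh4 in WT (92.5 against 76.6 CPM) but lower in KO (53.3 against 70.4 CPM). The cytotoxic sums rested on few reads, 25 against 10 in WT and 21 against 8 in KO. Of these, Cd8b1 held 18 against 9 in WT and 15 against 4 in KO. In KO, Nkg7 (0.807 against 1.90 CPM) and Gzmb (0.807 against 0.951 CPM) were lower in Tfh4, while Cd8b1 and Prf1 were higher. Start-site peaks were listed for 8 of 9 Tfh genes, but for only 2 B cell genes and 1 cytotoxic gene. The part of these marker reads in the values for Tfh4 was not tested.

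In the same comparison, 8 members, or 23.5%, had an unadjusted p under 0.05, against 25.7% of all tested genes. The lowest was Ccnd2 at -0.62 ± 0.22, with an adjusted p of 0.0798 and a pooled ratio of 0.640 (0.449 to 0.908), or 0.771 with scaling (0.541 to 1.09). The members' median was -0.22, against -0.26 over all genes, and 4 members lay above 0, E2f1 (0.07), Bub1, Mki67 and Cdk4. Both Tfh4 libraries lay below both Tfh21 libraries for 17 of 34 members, against 50.7% of all genes, and above them for none (0.988%). With scaling, both Tfh4 libraries lay above both Tfh21 libraries for 9 members (15.4% of all): Bub1, Ccna2, Cdk1, E2f1, E2f3, E2f7, E2f8, Mki67 and Rbl1. They lay below for Ccnd2, Cdkn1b, Cdkn2c and Rb1 (15.1% of all). Of the 9 on the higher side, 5 were E2F or pocket protein genes, of which 8 were tested. The 4 on the lower side were 2 CDK inhibitors, 1 D-type cyclin and 1 pocket protein gene, Rb1, and the split by role was not tested. Set among the 4.25% of tested genes nearest to each in level, 5 members stood above percentile 95, E2f1 (99.0), E2f3 (98.3), Cdk6 (95.7), Cdk4 and E2f7 (both 95.02), and 2 below percentile 5, Ccnd2 (2.33) and Cdkn2c (2.17). None of the members on the higher side was called, with or without scaling. By construction, about 5% of all tested genes stand above percentile 95 and about 5% below percentile 5. The members above and below were 0 and 2 for KO against WT and 0 and 0 for Tfh214 against Tfh21. For Tfh4 against Tfh214 they were 2 and 0.

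**Figure D4:**
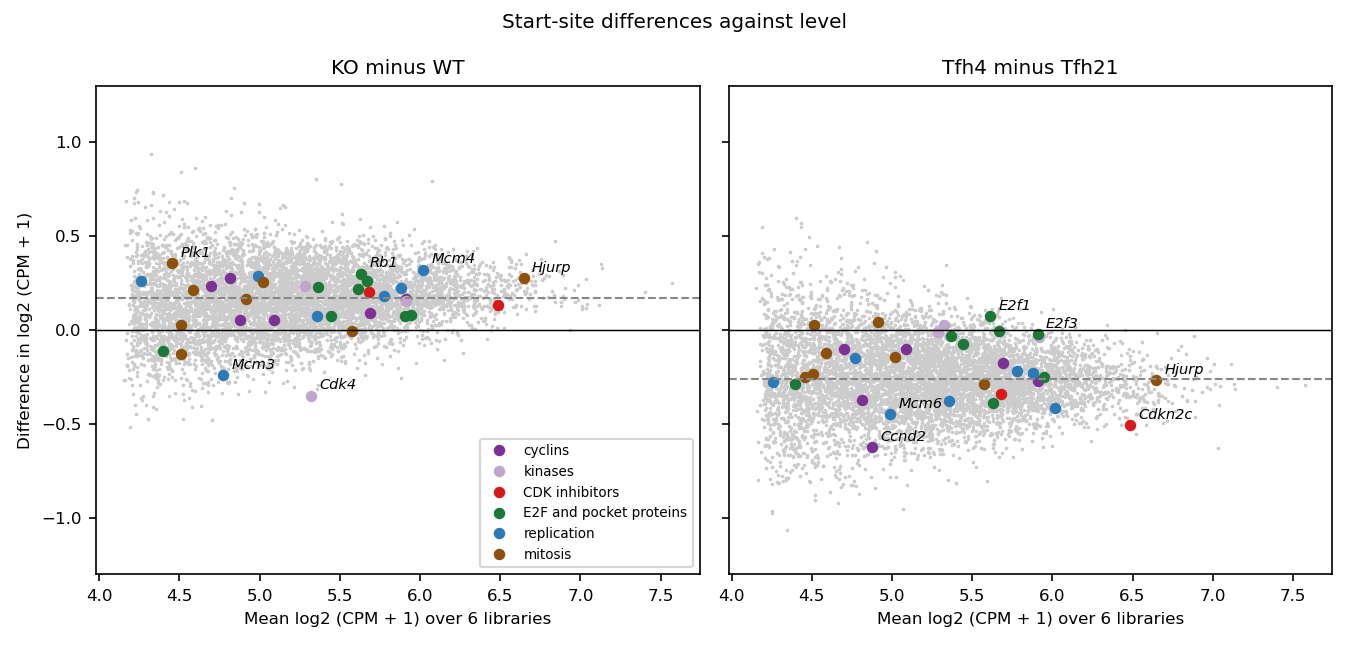
Difference in log2(CPM + 1) at start sites against the mean level, for KO against WT (left) and Tfh4 against Tfh21 (right). Grey points are all 7087 tested genes, coloured points the 34 members by role, and the dashed line the median of all genes; Cdk4 lies at the lower edge on the left, and Ccnd2 and Cdkn2c lie low on the right.

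Against Tfh214, Tfh4 shares its libraries with the preceding comparison, so the values are given beside it and do not count as a second observation. Cdkn2c differed by -0.44 ± 0.12 with an adjusted p of 0.0364 and Hjurp by -0.39 ± 0.12 with an adjusted p of 0.0484, in a limma fit that called 2.2% of all genes lower and none higher. For Hjurp the pooled ratio was 0.782 (0.647 to 0.946), with 0.887 in WT (0.679 to 1.16) and 0.657 in KO (0.498 to 0.866). With median-of-ratios scaling the differences were -0.22 for Cdkn2c and -0.17 for Hjurp, and neither was called. Both calls were lost with a minimum mean of 10 reads (adjusted p 0.0547 and 0.0675). The call of Cdkn2c was kept in 1 of the 6 fits without a library, that without KO Tfh214 (-0.68), and was lost without WT Tfh214 (-0.20, adjusted p 0.568), WT Tfh4 (0.117), KO Tfh4 (0.0527), WT Tfh21 (0.288) or KO Tfh21 (0.29). The call of Hjurp was lost without KO Tfh214 (-0.20, adjusted p 0.539), without KO Tfh4 (-0.25, adjusted p 0.361) and without either Tfh21 library (-0.39, adjusted p 0.29). Over all alternatives the adjusted p ran from 0.0142 to 1 for Cdkn2c and from 0.0242 to 1 for Hjurp. The lowest member was Ccnb1 at -0.54 ± 0.23 (adjusted p 0.154) and the highest Plk1 at 0.28 ± 0.26. The members' median was -0.17, against -0.22 over all genes, and both Tfh4 libraries lay below both Tfh214 libraries for 13 of 34 members (42.9% of all) and above them for E2f2 (3.03%). With scaling the balance turned: they lay below for Cdkn1b and Mcm6 (16% of all) and above for Bub1, E2f1, E2f2, Mcm2, Pcna and Plk1 (15.9% of all).

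Sums over all peaks of a gene gave no member call in any of the 4 comparisons among 39 tested members and 10825 genes. By limma, KO against WT called 0.00924% of genes higher and 0.0462% lower, and the comparisons of populations called 0% in either direction. Members with an unadjusted p under 0.05 numbered 3 for KO against WT, 1 for Tfh214 against Tfh21, 5 for Tfh4 against Tfh21 and 2 for Tfh4 against Tfh214, or 7.69%, 2.56%, 12.8% and 5.13%. Over all genes the shares were 11.1%, 5.1%, 12.7% and 10.1%, and edgeR and DESeq2 called no member. The members' medians were 0.11, -0.04, -0.09 and -0.06 in that order, against 0.07, -0.03, -0.11 and -0.08 over all genes. For KO against WT the lowest sum was again that of Cdk4, with 45.4, 59.0 and 47.3 CPM in WT and 38.1, 45.1 and 40.4 CPM in KO and a log2 difference of -0.28. The highest was Ccnb2, with 18.7, 14.9 and 24.0 CPM in WT and 27.6, 28.8 and 23.4 CPM in KO and a difference of 0.47. The genotypes did not overlap for Cdk4 (3.39% of all genes) but did for Ccnb2.

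Between populations, the lowest differences in gene sums were those of cyclins. Ccnd2 stood at 65.9, 49.5 and 53.2 CPM in WT and 75.2, 46.3 and 52.5 CPM in KO, with a difference of -0.55 between Tfh214 and Tfh21; Tfh21 was the highest population in both genotypes. Ccnb1 stood at 38.3, 37.0 and 21.8 CPM in WT and 38.1, 37.6 and 29.9 CPM in KO, lowest in Tfh4, at -0.56 against Tfh21 and -0.53 against Tfh214. On the other side, the highest differences were those of Cdk4 between Tfh214 and Tfh21 (0.30), Aurkb between Tfh4 and Tfh21 (0.20) and Cdkn1a between Tfh4 and Tfh214 (0.30). Aurkb, a kinase of the chromosomal passenger complex, stood at 21.4, 13.4 and 24.8 CPM in WT and 13.3, 23.8 and 15.3 CPM in KO, so the order of the populations differed between the genotypes. Cdkn1a stood at 32.1, 29.1 and 35.0 CPM in WT and 36.2, 20.04 and 25.8 CPM in KO, with KO Tfh214 the lowest.

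Away from start sites, a few members held most of their reads. Cdk6 had 52 peaks over its long introns, with 76.3% of its reads outside start sites. Its strongest such peaks lay 11.8 and 39.6 kb into the gene in intron 2 and 151 kb into it in intron 5, with 185, 144 and 111 reads over the 6 libraries. The reads of Cdk6 outside start sites had a pooled KO to WT ratio of 1.14 (1.02 to 1.27), or 1.01 with scaling (0.9096 to 1.13). Scaled ratios away from start sites use the factors of start sites, which lower the KO to WT ratios of all genes. With these factors the all-gene median log2 difference of gene sums was -0.11 in each KO to WT pair. Ccnd3 had 42 peaks and 85.7% of its reads outside start sites. The strongest such peak lay 2.81 kb from the start with 177 reads. Its section label was 5′ UTR exon, a label that Ccnd3 peaks carried up to 82543 bases from the start. The reads of Ccnd3 outside start sites had a ratio of 1.08 (0.957 to 1.23), or 0.967 with scaling (0.854 to 1.095). Cdkn1a had 79.2% outside, Aurkb 67.7%, Bub1b 59.4%, E2f2 56.8% and Cdc6 54.2%. Cdkn2c, Cdt1, which loads the helicase, and Cdc20, which activates the anaphase-promoting complex, had no listed peak outside start sites. Ccnd1, the D-type cyclin with no start-site peak, had 106 reads in 6 peaks, at 21.4, 15.7 and 18.2 CPM in WT and 12.4, 10.0 and 12.9 CPM in KO, and a ratio of 0.654 (0.426 to 0.989), or 0.584 with scaling (0.381 to 0.883).

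Hjurp had a higher CPM in KO than in WT at its start site, though with scaling only in Tfh214, and a lower CPM away from it. At the start-site peak (chr1:90173181-90174668 in mm9) the pooled KO to WT ratio was 1.20 (1.03 to 1.398), or 1.07 with scaling (0.916 to 1.25). The other 6 peaks together stood at 47.2, 38.5 and 44.4 CPM in WT and 25.7, 25.05 and 31.5 CPM in KO, with all KO libraries below all WT libraries. Their pooled ratio was 0.644 (0.490 to 0.841), or 0.574 (0.437 to 0.750) with the start-site scaling factors, which lower such ratios for all genes. It was 0.544 in Tfh21 (0.329 to 0.881), 0.650 in Tfh214 (0.366 to 1.11) and 0.709 in Tfh4 (0.462 to 1.08).

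The most covered of these 6 peaks lay at the end of the gene (chr1:90155901-90156429 in mm9), and its low value in KO Tfh21 was already known when it was chosen. It held 23, 20 and 19 reads in WT and 10, 5 and 11 in KO, a ratio of 0.512 (0.311 to 0.821). Without it the remaining 5 peaks had a ratio of 0.725 (0.518 to 1.01). Among genes with at least 100 reads outside start sites, all KO libraries lay below all WT libraries for 3 of 15 members, Ccnd1, E2f7 and Hjurp, against 7.7% of 6100 genes. In CPM, the median ratio was 1.04 for these members and 0.963 for all, and 2.95% of the genes had a ratio at or below that of Hjurp. This reading of Hjurp was chosen after its values were seen, and no test was made of it.

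**Figure D5:**
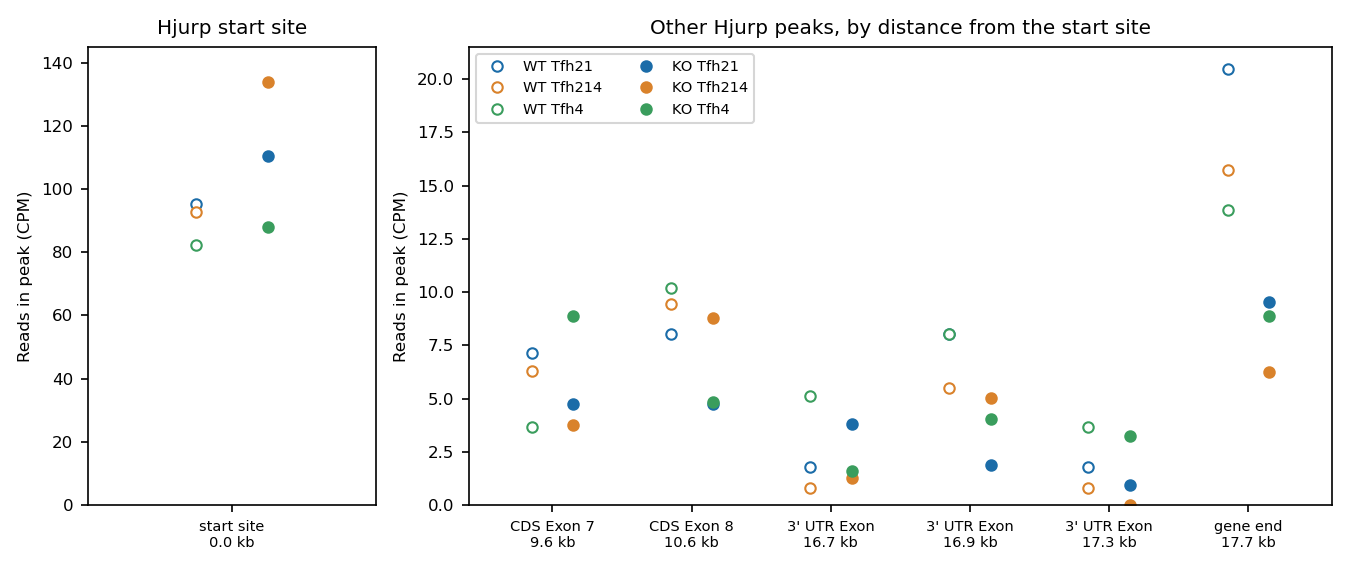
Reads of Hjurp in CPM at its start-site peak (left) and in its 6 other peaks, ordered by distance from the start site in kb (right), with 1 point per library, open for WT and filled for KO. In CPM, KO lies higher at the start site in each population (with scaling only in Tfh214), and at the gene-end peak the 3 KO libraries lie below the 3 WT libraries.

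Single pairs of libraries have no replicate, so they compare those libraries only. At 1.5-fold or more in CPM + 1, with at least 20 reads in either library, KO exceeded WT at the start sites of Ccnb2 and Cdc20 in Tfh21 (8.29% of all genes), Mcm4 in Tfh214 (6.14%) and Ccnb1, Ccnd3 and Plk1 in Tfh4 (7.32%). The only member lower in KO was Cdk2 in Tfh214 (1.75%), and none was lower in Tfh4 (3.1%). With median-of-ratios scaling the 6 higher and 1 lower values became 3 and 5. Cdk4 was then lower in Tfh21 (163 of 7586 genes) and Cdk2, Cdk4, Mcm3 and Mki67 in Tfh214 (316 of 7480). Cdc20 was higher in Tfh21 (194 of 7586) and Ccnb1 and Plk1 in Tfh4 (275 of 7669). In CPM, Plk1 had 1.90 times the WT value in Tfh4 (1.08 to 3.43), and Mcm4 1.52 times in Tfh214 (1.06 to 2.18). With scaling, no member had an interval above 1 in either of these 2 pairs.

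Between populations, 3 member values passed on the higher side and 12 on the lower side, but with scaling 7 and 4. The all-gene counts moved as well. For Tfh4 against Tfh21, 109 higher and 689 lower became 288 and 186 in WT. In KO, 26 and 1117 became 172 and 191. For Tfh4 against Tfh214, 167 and 809 became 390 and 315 in WT, and 101 and 722 became 312 and 173 in KO. For Tfh214 against Tfh21, 211 and 211 became 243 and 183 in WT, and 77 and 376 became 111 and 281 in KO. Against Tfh21, Tfh4 was lower for Ccnb1, Mcm4 and Plk1 in WT (9.03% of all) and for Ccnd2 and Cdkn2c in KO (14.7%), and higher for none in KO (0.341%). Against Tfh214, it was lower for Ccnb1, Cdk2 and Cdkn2c in WT (10.4%) and for Cdt1 and Hjurp in KO (10%), and higher for Ccnb2 in WT (2.14%) and Plk1 in KO (1.4%). Between Tfh214 and Tfh21, Cdk2 was higher and Plk1 lower in WT (2.75% each), and Cdc20 was lower in KO (5.08%). Among members with at least 20 reads in either library, none reached 2-fold at a start site in any of the 9 pairs. Over all genes, from 2 of 7586 to 100 of 7623 did so in a given direction of a pair.

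Other genes of the cell cycle were measured as a list of 136, of which 124 had a start-site peak and 99 were tested. Incenp, the scaffold of the chromosomal passenger complex, was called higher in KO, at 0.60 ± 0.17 with an adjusted p of 0.0488 (limma), as 1 of 99 genes beside 1.02% of all. The call was kept only with a pseudocount of 5 among the alternatives, and the adjusted p ran from 0.044 to 1, with a difference of 0.44 after median-of-ratios scaling. Cdk9, a kinase of transcription elongation, and Stag1, a cohesin subunit, were called lower in Tfh4 than in Tfh214, at -0.63 ± 0.17 (adjusted p 0.0308) and -0.47 ± 0.14 (adjusted p 0.0442), as 2 of 99 genes beside 2.2% of all. Both calls were lost with median-of-ratios scaling (-0.41 and -0.25), loess, edgeR, DESeq2 or no trend. Cdk9 was also lost without either Tfh21 library, without KO Tfh214 (-0.35) and without KO Tfh4 (-0.16). Stag1 was also lost without any one library but KO Tfh4, with -0.29 without WT Tfh4. Counting every alternative, the call of Cdk9 was lost in 10 and kept in 6, and that of Stag1 lost in 13 and kept in 3. Over the alternatives the adjusted p ran from 0.000145 to 1 for Cdk9 and from 0.0177 to 1 for Stag1. No gene of the list was called between Tfh214 and Tfh21, where Kif2c was lowest (-0.63) and Anln highest (0.36), or between Tfh4 and Tfh21, where Pola1 was lowest (-0.79) and Anln highest (0.27). The medians of the list were 0.19 for KO against WT, -0.06 for Tfh214 against Tfh21, -0.20 for Tfh4 against Tfh21 and -0.18 for Tfh4 against Tfh214, beside 0.17, -0.04, -0.26 and -0.22 over all genes. With median-of-ratios scaling they were 0.02, -0.01, 0.06 and 0.03.

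The promoter elements were also set beside the differences, as a description of the tested members. The 9 tested members with an E2F element had a median KO to WT log2 difference of 0.08 and the 20 without one 0.21, beside 0.16 for all tested genes with the element. With and without a CCAAT box the medians were 0.22 (22 members) and 0.08 (7 members), beside 0.18 for all tested genes with it. With and without a CHR they were 0.19 and 0.18. For the E-box they were 0.10 (4 members) and 0.21 (25 members). Between populations, the medians with and without the E2F element were 0.03 and -0.02 for Tfh214 against Tfh21. They were -0.15 and -0.20 for Tfh4 against Tfh21, and -0.15 and -0.17 for Tfh4 against Tfh214. None of these gaps was tested. The median level per kb was 40.9 CPM for members with the E2F element and 41.5 CPM for those without, and 38.8 CPM and 43.9 CPM for those with and without the CHR.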

How the data were processed

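The authors deposited 1 list of 282898 peaks common to the 6 ATAC-seq libraries, with a CPM value per library and a gene symbol and gene section per peak. The submitters' processing notes name Bowtie 1.3.0, MACS2 2.0, HOMER and build mm9; which step each served, the filters and whether peaks were called on pooled reads are not given in the sources used here. Every listed peak had at least 10 reads over the 6 libraries. The CPM values were whole multiples of 1 read for at least 99.9986% of peaks in each library, within a tolerance of 0.02 reads, so reads were recovered from them. Coordinates in mm9 are given as deposited.

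Peaks in the section of transcription start sites, all within 999 bases of one, were summed per gene as start-site CPM, and all peaks of a gene as its gene sum. Genes with a mean of at least 20 reads per library were tested with limma 3.58.1 (R 4.3.3; lmFit, eBayes with trend) on log2(CPM + 1), with genotype and population as additive terms over all 6 libraries. Each group is 1 library, so fold changes on this scale, which understates those of low genes, are set against 2 residual degrees of freedom. Alternatives were median-of-ratios and cyclic loess scaling, edgeR 4.0.16 and DESeq2 1.42.0 on recovered reads, other pseudocounts and read minimums, no trend, the strongest start-site peak only, and each library left out. On the recovered reads at start sites, edgeR called 1 gene of all for KO against WT and DESeq2 none, and neither called any between populations. Ratio intervals are exact binomial at 95%. The code was tested on simulated data. Python 3.11.15 with pandas 2.3.3, numpy 2.4.6, scipy 1.17.1 and matplotlib 3.10.9 was used for the rest.

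The members and all lists were chosen with earlier results of these data known. Full values per library are given for the 2 members of each role with the highest start-site level, members called, the highest and lowest member of each contrast, and 10 members named by the rule (Ccnd2, Ccnd3, Cdk6, Cdkn1b, E2f1, E2f2, Mki67, Top2a, Pcna and Hjurp). The start-site values of Rb1, E2f7, Mcm3 and Cdk2 in every library were added after they were seen. Other cell cycle genes are named where called, or else as the highest and lowest. Promoter sequences are those of RefSeq for GRCm38.p6, matched by symbol. The E2F, CCAAT and CHR letters follow textbook elements, and the E-box was added after reading the Cdk4 promoter.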

Additional observations from a re-analysis of the deposited data

How the results depend on the processing

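With median-of-ratios scaling, loess, edgeR and DESeq2 in that order, the members' median start-site difference was 0.0091, 0.0059, 0.0253 and 0.0102 for KO against WT, 0.0367, 0.0432, 0.0512 and 0.0365 for Tfh4 against Tfh21, and 0.0431, 0.0258, 0.0316 and 0.0341 for Tfh4 against Tfh214. For gene sums the same 4 gave 0.0376, 0.0236, 0.0391 and 0.0376 for KO against WT, 0.0175, 0.0072, 0.0214 and 0.0202 for Tfh4 against Tfh21, and 0.0107, 0.0018, 0.001 and -0.0109 for Tfh4 against Tfh214. Loess gave -0.0008 for the gene sums of Tfh214 against Tfh21. With no minimum of reads, the start-site median for Tfh4 against Tfh21 was -0.1744. For KO against WT it was 0.1179 without the Tfh21 libraries and 0.1183 without the Tfh4 libraries.

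Member calls at start sites went to 0 for Tfh4 against Tfh21 and for Tfh4 against Tfh214 with each of those 4 and without the variance trend. For Tfh4 against Tfh214 they also went to 0 with a minimum of 10 reads or none, and to 1 with the strongest peak only (Cdkn2c). For KO against WT they went from 0 to 1 (Hjurp) without the Tfh4 libraries. At 2-fold, with the same minimum of 20 reads, no member passed in a pair in either unit, against 22 start-site and 20 gene-sum values at 1.5-fold.

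With each library left out in turn, the number of member calls at start sites ran from 0 to 1 for KO against WT, Tfh4 against Tfh21 and Tfh4 against Tfh214. The medians at start sites ran from 0.1179 to 0.1945 for KO against WT, from -0.0796 to 0.015 for Tfh214 against Tfh21, from -0.2245 to -0.1829 for Tfh4 against Tfh21 and from -0.2183 to -0.1706 for Tfh4 against Tfh214. Those of gene sums ran from 0.0796 to 0.1358, -0.1452 to -0.0357, -0.1752 to -0.0763 and -0.1309 to -0.0609 in the same order. With 1 library left out, its partner of the other genotype enters the estimate of KO against WT no more, so the estimate equals that without both.

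Over all genes, start-site calls moved as follows. For KO against WT, 72 higher went to 1 (median-of-ratios, edgeR), 0 (loess, DESeq2, no trend, without the Tfh21 libraries) and 50 with 1 lower (no minimum). For Tfh4 against Tfh21, 222 lower went to 0 with scaling, loess, edgeR, DESeq2 or no trend, 60 with a minimum of 10 reads, 43 with none and 144 with the strongest peak. For Tfh4 against Tfh214, 156 lower went to 0 in the same 5, 78 with a minimum of 10 and 84 with none. Leaving out a library brought Tfh4 against Tfh21 to between 0 (without either Tfh21 library) and 289, and Tfh4 against Tfh214 to 1 (without either Tfh21 library), 31 (WT Tfh214) and 47 (KO Tfh214). KO against WT went to 0 without either Tfh21 library. For gene sums of KO against WT, 1 higher and 5 lower went to 1 and 14 with loess and to 14 and 55 without the Tfh4 libraries, and Tfh4 against Tfh21 went from 0 to 62 higher and 59 lower without WT Tfh4. The cause was not tested. No paired analysis was possible because each group has 1 library with the same replicate number, beyond the fit itself, whose population term sets KO against WT within each population. With 48 and 33 start-site reads for Cdk4 in the Tfh21 libraries, for example, a ratio of 0.734 had an interval that included 1, so this difference was not detectable at this depth. At start sites with more reads, those of Hjurp (1.44, 1.101 to 1.89) and Mcm4 (1.52, 1.06 to 2.18) in Tfh214 had CPM intervals that did not include 1. These were the 2 of 39 members with an interval above 1 in that pair. With median-of-ratios scaling 0 members had an interval above 1 and 1 had an interval below it. The share of all genes with such an interval was not computed. In CPM, the all-gene median log2 difference of the pair was 0.16, and 6.14% of all genes were higher in KO by 1.5-fold. Cdkn2c, with 131 WT and 72 KO reads there, had an interval that included 1.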
